A study of Mus musculus with 4 samples.

Results

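Small structural noncoding RNAs of 2 tissues, uterus and ovary, were examined in pregnant mice kept in low oxygen or in normal oxygen. These are the genes whose transcript class was snRNA, snoRNA, scaRNA, rRNA, misc_RNA or ribozyme in the authors' deposited tables of changed genes. The rule found 92 such genes among the 1696 genes listed in at least 1 tissue, 35 in the uterus table and 60 in the ovary table, with 3 in both. The tissues were taken at embryonic day 3.5, around the time an embryo implants, and the study asked how forced low oxygen bears on that window. The groups were hypoxia uterus, normoxia uterus, hypoxia ovary and normoxia ovary. The hypoxia mice were placed in low oxygen 72 hours after fertilization, and the normoxia mice are labelled as controls. Strain, age and oxygen level are not known from the sources used here. RNA of 3 samples was pooled for each group and made into 1 library, so no difference has a replicate check and no p-value is given. In pooled tissue, fewer cells of a type and less RNA per cell cannot be told apart. The tables hold no levels, so the tissue labels could not be checked against marker genes.

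The established RNAs of these classes act as parts of ribonucleoprotein machines and are not translated. Of the 91 members found in the annotation, 79 carry no family name of their own. Many match a named gene only in part, and whether they have such a function was not tested. The snRNAs U1, U2, U5 and U6 work in the spliceosome, which removes introns, and U7 takes part in making the ends of histone mRNAs. Box C/D snoRNAs guide methylation and H/ACA snoRNAs guide pseudouridylation of ribosomal RNA, and scaRNAs do the same for snRNAs in Cajal bodies. The 5S rRNA belongs to the large ribosomal subunit, the RNA of RNase MRP helps cut the ribosomal RNA precursor, 7SK RNA holds back the elongation factor P-TEFb, and 7SL RNA is the core of the signal recognition particle. Most of them carry no poly(A) tail. The libraries were made from RNA captured by its poly(A) tail, per the labels' protocols, so each read here came through a step that such RNAs mostly escape. The part of that step in the results was not tested.

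The authors' deposited tables give 1 log2 fold change for each gene and list a gene only when that value is at least 2 in size. Neither table says which condition is the numerator. A positive value is read here as higher in hypoxia, and every direction below depends on that reading. Within each tissue, every deposited ratio was a ratio of whole numbers multiplied by 1 shared factor (uterus 0.9953, ovary 0.9523). The whole numbers, called terms, are given with hypoxia first. Each term was taken to be a read count plus 1, an inference that no source states. Since a ratio shows only its lowest form, any common multiple of the pair cannot be seen, and the true counts may be larger. Exact Clopper-Pearson intervals of 95% on the fold were computed from the terms less 1. The words "beyond counting error" are used where the same interval, corrected by Bonferroni over the 55536 annotated genes, left out a fold of 1. Such a call compares 2 libraries, not 2 conditions. The tables hold no library totals, so sequencing depth is unknown.

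The sequences of the members listed in both tissues come first, since these are the members seen in both pairs of libraries. Whether uterus and ovary came from the same mice was not established, so the pairs may not be independent. All sequences are GENCODE M21 transcripts on GRCm38, the assembly also called mm10, written 5′ to 3′. Rmrp lies at chr4:43492788-43493058 on the minus strand, Gm27980 at chrX:169295009-169295177 on the plus strand and Gm22334 at chr2:155652892-155653024 on the minus strand. Capitals in Rmrp mark the 124 of 271 bases that overlap an exon of Ccdc107 on the other strand. Capitals in Gm27980 mark the 90 of 169 bases that are an exon of Arhgap6 on the same strand. Capitals in Gm22334 mark the ACA that sits 3 bases from the end, where H/ACA RNAs carry it.
Rmrp: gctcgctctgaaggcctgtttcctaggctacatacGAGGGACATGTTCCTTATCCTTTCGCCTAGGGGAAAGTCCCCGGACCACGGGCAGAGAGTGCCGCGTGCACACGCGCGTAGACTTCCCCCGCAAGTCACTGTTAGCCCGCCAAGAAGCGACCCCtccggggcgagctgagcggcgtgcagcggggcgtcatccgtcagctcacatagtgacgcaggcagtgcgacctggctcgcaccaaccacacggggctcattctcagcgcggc
Gm27980: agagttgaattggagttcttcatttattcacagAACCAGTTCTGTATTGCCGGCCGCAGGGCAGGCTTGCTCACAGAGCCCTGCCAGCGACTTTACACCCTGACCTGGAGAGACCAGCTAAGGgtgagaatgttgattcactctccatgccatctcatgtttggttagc
Gm22334: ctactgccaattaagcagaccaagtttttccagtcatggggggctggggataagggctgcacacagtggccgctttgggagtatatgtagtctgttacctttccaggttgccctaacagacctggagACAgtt

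The next pair shows the letters of each snoRNA kind. Gm22154, at chr4:123293152-123293282 on the plus strand, had the largest negative value of any snoRNA and is shown with its ACA in capitals. Snord45b, a box C/D snoRNA at chr3:153910563-153910633 on the minus strand, is shown with TGATG and CTGA in capitals, the letters of the C and D boxes. Snord45b was chosen after its values were seen.
Gm22154: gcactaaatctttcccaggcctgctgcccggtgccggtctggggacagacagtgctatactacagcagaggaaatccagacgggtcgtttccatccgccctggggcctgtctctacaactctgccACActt
Snord45b: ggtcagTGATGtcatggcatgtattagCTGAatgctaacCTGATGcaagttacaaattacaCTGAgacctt

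Of the 3881 annotated genes of the 6 classes, 0.902% were listed in the uterus, where 1.63% of all 55536 annotated genes were. The ovary table listed 1.55% of them, and 1.54% of all annotated genes. In the ovary the members were therefore listed about as often as any annotated gene, and in the uterus at a lower rate. In the uterus 13 members were higher and 22 lower in hypoxia, where 0.884% of all annotated genes were listed higher and 0.742% lower. Lower members were thus 62.9%, against 45.6% over all listed uterus genes. In the ovary 33 were higher and 27 lower, where 0.78% of all annotated genes were listed higher and 0.758% lower. Lower members were 45.0%, against 49.3% over all listed ovary genes. Terms of 1 to 4 stand as -2.01 in the uterus table and -2.07 in the ovary table among the authors' deposited tables, just past the threshold. Terms of 4 to 1 would give 1.99 and 1.93, just short of it, so this pair of terms can be listed only as lower. It accounted for 9 uterus and 8 ovary members. Without them 13 of the uterus members were lower and 13 higher, against a lower share of 35.7% of all listed uterus genes treated alike. In the ovary 19 were lower, or 36.5%, against 39.0%. The members nearest the threshold on the other side were Gm27651, at 2.07 in the authors' deposited table of the uterus, and Gm26020, at 2.04 in that of the ovary.

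**Figure D1:**
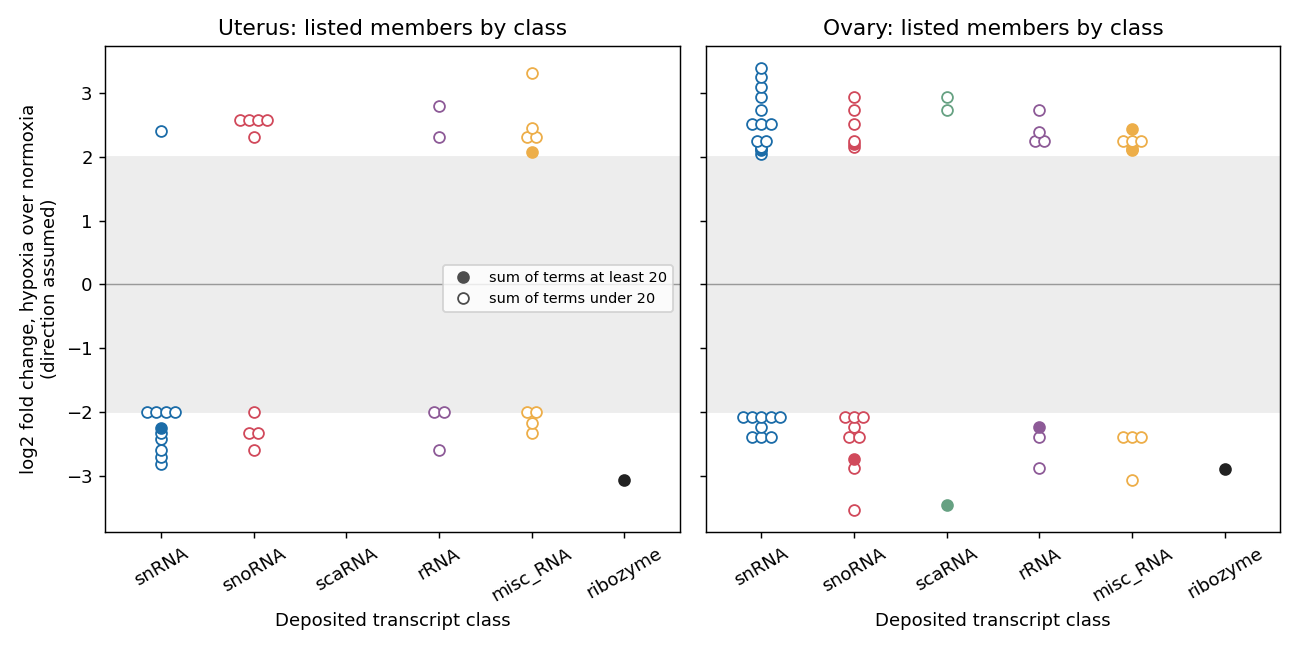
Deposited log2 fold change (hypoxia over normoxia, direction assumed) of each listed member by transcript class, uterus on the left and ovary on the right; each circle is 1 member, filled where its terms sum to at least 20, and the grey band holds values below the threshold of 2. The uterus snRNAs lie on the lower side with 1 exception, while 14 of the 23 ovary snRNAs lie on the upper side, and most circles are open. No snRNA was beyond counting error, and 45.6% (uterus) and 49.3% (ovary) of all listed genes were lower.

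In the authors' deposited tables the members ran from -3.07 (Rmrp) to 3.32 (Gm27980) in the uterus, and from -3.53 (Gm22154) to 3.39 (Gm25772) in the ovary. Most of these ratios rested on very few reads. A term of 1, read as 0 reads in 1 library, stood behind 27 of the 35 uterus members (77.1%) and 43 of the 60 ovary members (71.7%). The same held for 66.9% of all listed uterus genes and 72.7% of all listed ovary genes. The median sum of the terms was 7 for uterus members and 8 for ovary members, against 8 and 7 over all listed genes. No uterus member had a sum of 100 or more, and 2 ovary members did, CT010467.1 and Rmrp, while 7.09% of listed uterus genes and 5.15% of listed ovary genes reached it. A sum of at least 20 was reached by 3 uterus and 9 ovary members. By the corrected interval 0 uterus members were beyond counting error, against 12.2% of all listed uterus genes (7.64% higher and 4.54% lower). By the uncorrected 95% interval the uterus count was 11 of 35 (31.4%), against 54.2% of all listed uterus genes. In the ovary 3 members, or 5.0%, were beyond counting error, against 8.31% of all listed ovary genes (3.51% higher and 4.8% lower), and 31 (51.7%) passed by the uncorrected interval, against 48.9%. The 3 were CT010467.1, Rmrp and Gm25219.

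**Figure D2:**
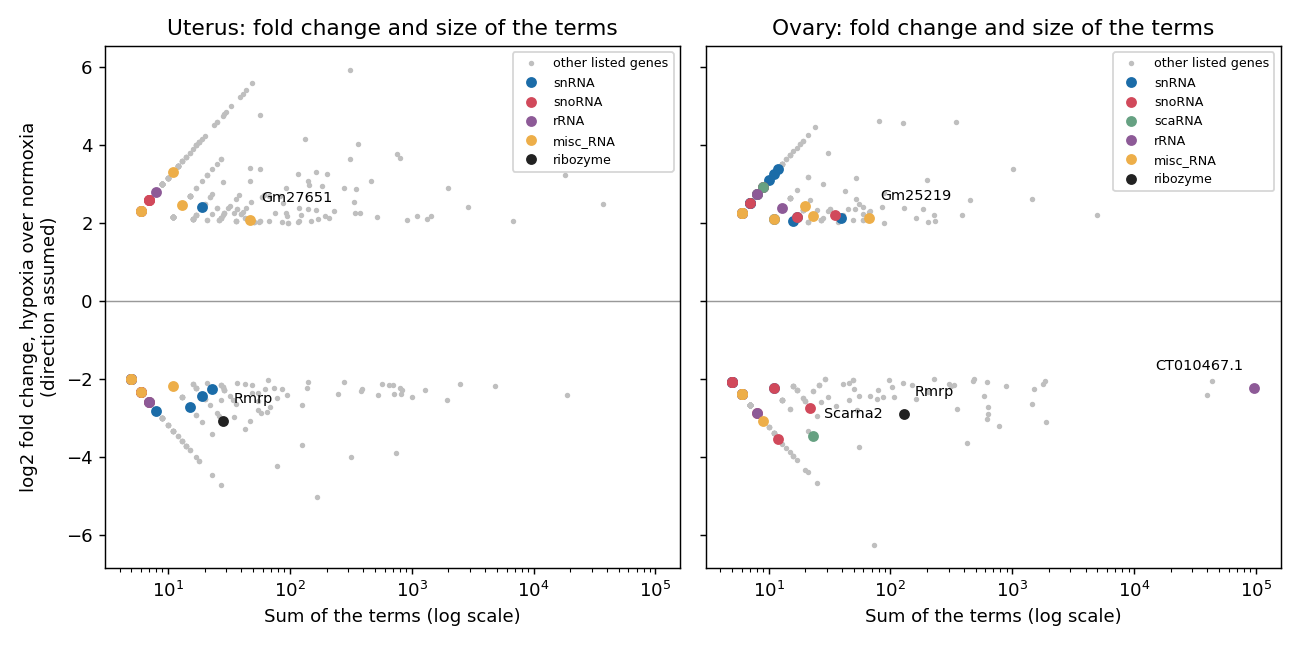
Deposited log2 fold change (hypoxia over normoxia, direction assumed) against the sum of the terms on a log axis, uterus on the left and ovary on the right; grey points are the other listed genes and coloured points the members, by class. Most members sit at the left end, where the slanting edges are ratios with a term of 1, and CT010467.1 stands alone at the right end of the ovary plot with a sum of 97052.

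Among the ribosomal RNAs, CT010467.1 rested on by far the most reads. It is an rRNA locus at chr17:39846353-39848827 on the minus strand. In the ovary its terms were 17665 in hypoxia and 79387 in normoxia, a log2 fold change of -2.24 in the authors' deposited table. That is 4.72-fold lower in hypoxia, with a counting interval of 4.64 to 4.80. Its sum of 97052 ranked 1 among all 854 listed ovary genes. It was not listed in the uterus. Of its 2466 exonic bases in the annotation, 923 (37.4%) are shared with AY036118 on the same strand and 1822 (73.9%) with Gm42418 on the opposite strand, and neither gene was listed in either tissue. Whether the authors' counting used strand, and how it treated reads that match several genes or places, is not known from the sources used here, so the value of CT010467.1 is uncertain. The interval covers counting error only.

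A list of 9 other loci, chosen with earlier results of these data known, was set beside the ribosomal class. In the ovary 2 of the 9 were listed (22.2%), both lower and both beyond counting error. There 1.54% of all annotated genes were listed, and 4.8% of listed genes were lower and beyond counting error. In the uterus 0 of 9 were listed, against 1.63% of all annotated genes. Because the loci were chosen with results known, their share and shared direction reflect that choice and cannot show enrichment. Lars2, which encodes the mitochondrial leucyl-tRNA synthetase, had terms of 6601 in hypoxia and 33410 in normoxia in the ovary and a log2 fold change of -2.41 in the authors' deposited table. Gm23935, whose deposited class is miRNA, had terms of 8688 in hypoxia and 34475 in normoxia and a log2 fold change of -2.06 in the authors' deposited table. Lars2 was 5.32-fold lower in hypoxia (5.18 to 5.46) and Gm23935 was 4.17-fold lower (4.07 to 4.27). With CT010467.1, these are 3 loci whose terms sum to at least 40011 in the ovary table, all of them lower in hypoxia, by 4.17-fold to 5.32-fold. A BLAST search at an E-value of 1e-05 found 0 matches to CT010467.1 in the 9 Lars2 transcripts and 0 in the 1 Gm23935 transcript. The search covered CT010467.1 only, so sequence shared with other ribosomal RNA was not tested.

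The other rRNA members were 5S-like and rested on few reads. The uterus listed 5 rRNA members, 2 higher and 3 lower in hypoxia, and the ovary 7, with 4 higher and 3 lower. Without CT010467.1, the 11 annotated rRNA members all had a 5S gene as their nearest named gene, at 76.4% to 90% identity over the matched part. That part ran from 34.5% of the bases (Gm23473) to 96.8% (Gm24189), and was 43.0% for Gm22216, the member at 90%. Among all annotated rRNA genes 99.2% did. In the uterus Gm27266 had terms of 7 in hypoxia and 1 in normoxia and 2.80 in the authors' deposited table. It was 1.99-fold higher when 3 reads stood in for the 0 of the normoxia library. Such a fold takes the count of the other library as exact and is not a lower bound. The lower limit of the 95% interval, 1.17 for Gm27266, is therefore given beside it. The gene n-R5s172 had terms of 1 in hypoxia and 6 in normoxia and -2.59 in the authors' deposited table, and its 95% interval included 1. In the ovary n-R5s21 had terms of 7 in hypoxia and 1 in normoxia and 2.74 in the authors' deposited table. It was 1.90-fold higher with 3 reads for the 0 (95% lower limit 1.12). Gm24189, in an intron of Ncoa7, had terms of 1 in hypoxia and 7 in normoxia and -2.88 in the authors' deposited table. It was 2.10-fold lower with 3 reads for the 0 (95% lower limit 1.24). The folds with 3 reads for the 0 are smaller than the listed values taken as folds. The listed value of a gene with 0 reads in 1 library depends on the 1 that was added. No 5S-like member was listed in both tissues.

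Rmrp, the RNA of RNase MRP, was the ribozyme member of both tables and was lower in hypoxia in both. In the ovary its terms were 16 in hypoxia and 113 in normoxia, and its log2 fold change was -2.89 in the authors' deposited table. That is 7.42-fold lower in hypoxia, with an interval of 4.56 to 14.5, beyond counting error. In the uterus its terms were 3 in hypoxia and 25 in normoxia, with -3.07 in the authors' deposited table. That is 8.37-fold lower in hypoxia with an interval of 2.99 to 105.3, which left out 1 at 95% but not after the correction over all annotated genes. Read as counts plus 1 in lowest form, the hypoxia terms stand for 2 reads in the uterus and 15 in the ovary. With 5 added to both counts in place of 1, the log2 fold change was -2.62 for the ovary and -2.06 for the uterus, so the direction stayed and the size drew in. The 124 bases shared with Ccdc107, shown in capitals above, are on the opposite strand, so reads of both genes can be told apart only where strand was used. None of the 10 protein genes of RNase MRP and RNase P was listed in either tissue, against 1.63% (uterus) and 1.54% (ovary) of all annotated genes. At this threshold that says only that none reached a log2 fold change of 2 in size.

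**Figure D3:**
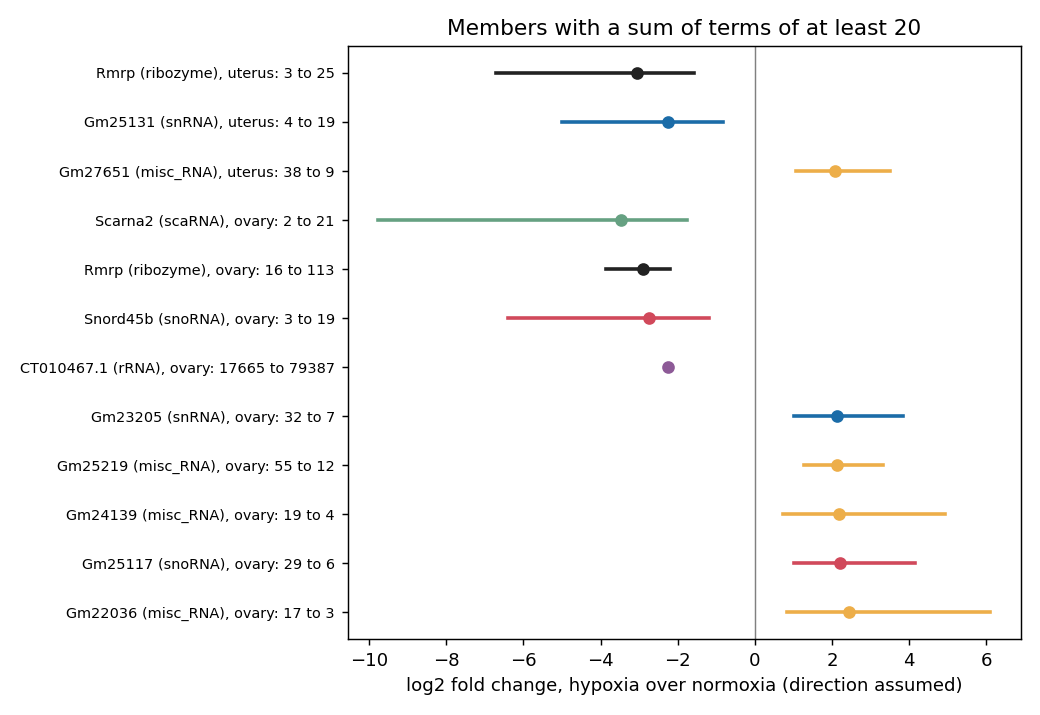
Log2 fold change (hypoxia over normoxia, direction assumed) of the members whose terms sum to at least 20, with 95% Clopper-Pearson counting intervals as bars; the label of each row gives class, tissue and terms, hypoxia to normoxia. The interval of CT010467.1 is narrower than its point, that of Rmrp in the ovary runs from 4.56-fold to 14.5-fold lower, and that of Scarna2 is the widest.

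The snRNAs were the largest class, with 11 uterus and 23 ovary members. In the uterus 1 was higher and 10 lower in hypoxia, and 6 of the 10 stayed when terms of 1 to 4 were left out. In the ovary 14 were higher and 9 lower, and 4 of the 9 stayed. Of all listed genes 45.6% (uterus) and 49.3% (ovary) were lower, or 35.7% and 39.0% without terms of 1 to 4. No snRNA was beyond counting error in either tissue, and 5 uterus (45.5%) and 10 ovary snRNAs (43.5%) passed the uncorrected 95% interval, against 54.2% and 48.9% of all listed genes. No snRNA was listed in both tissues, so the opposite balance of the tissues rests on different annotated loci. Reads of near-identical copies, described below, could be assigned to different loci, so these may not all be different RNAs. The difference between the tissues was not tested.

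None of the 34 snRNA members carries a family name of its own, so each was matched by BLAST to the named genes of the annotation. U6 was the nearest named family for 23 of them (67.6%), about the share among all annotated snRNA genes (69.3%), with identities of 72.7% to 96.9% and a median of 88.8%. In the uterus 1 of the 9 U6-like members was higher and 8 lower in hypoxia, 5 of these 8 without terms of 1 to 4. In the ovary 11 of 14 were higher and 3 lower, 1 of these 3 without terms of 1 to 4. None of the U6-like members was beyond counting error. By the uncorrected 95% interval 4 of the 9 uterus and 7 of the 14 ovary members passed. Near-identical copies elsewhere, at 90% identity over 90% of the length, existed for 14 of the 34. Gm22061, chosen after its values were seen, had ovary terms of 1 in hypoxia and 4 in normoxia and 269 such copies, the most of any member. Reads of such copies could be split or discarded by the authors' counting, and these values are uncertain.

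**Figure D4:**
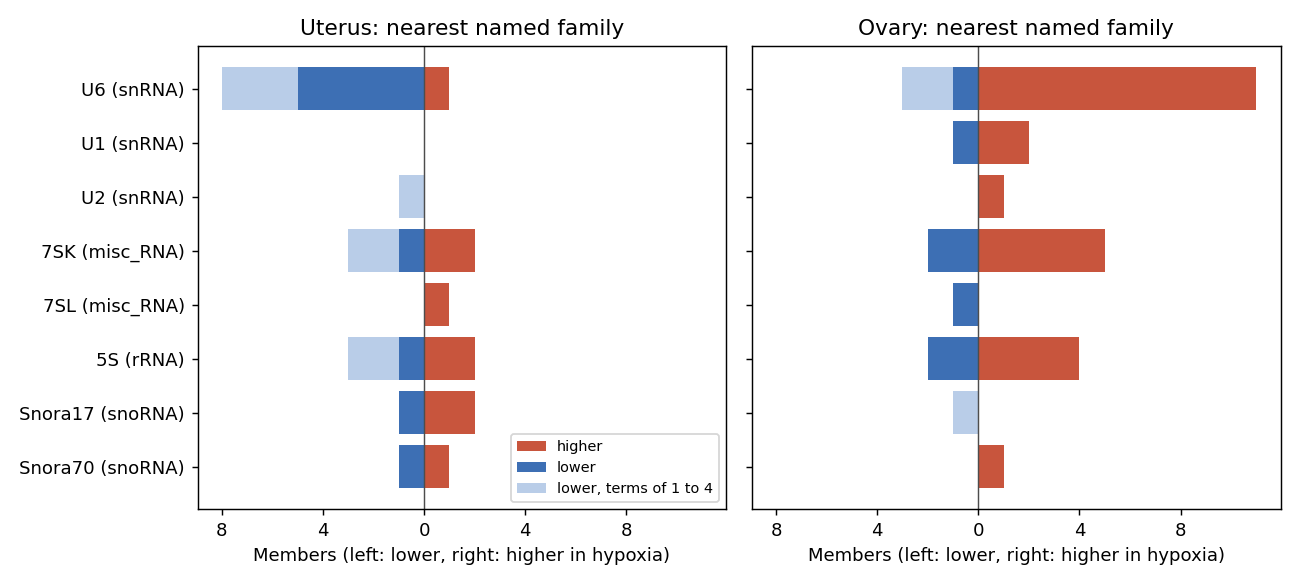
Number of members by nearest named family, uterus on the left and ovary on the right; bars to the right count members higher and bars to the left members lower in hypoxia, with pale blue for terms of 1 to 4. The U6-like bar points to the lower side in the uterus (8 of 9) and to the higher side in the ovary (11 of 14). Of all listed genes 45.6% (uterus) and 49.3% (ovary) were lower, and no U6-like member was beyond counting error.

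The snRNA with the most reads in the uterus was Gm25131, on the strand opposite an intron of Mrtfa, with terms of 4 in hypoxia and 19 in normoxia and -2.25 in the authors' deposited table. It was 4.77-fold lower in hypoxia, with an interval of 1.76 to 31.9. Gm24492 was the only uterus snRNA listed higher, with terms of 16 in hypoxia and 3 in normoxia and 2.41 in the authors' deposited table. It was 5.31-fold higher in hypoxia (1.74 to 67.3) and lies in an intron of Thada on the same strand. It is also among the closest to U6, at 96.9% identity, and had 224 near-identical copies. Gm26441 had the largest negative value of the uterus snRNAs, -2.81 in the authors' deposited table, from terms of 1 in hypoxia and 7 in normoxia, at least 2.01-fold lower (95% lower limit 1.18). Gm24867, chosen after its values were seen, had terms of 3 in hypoxia and 16 in normoxia in the uterus and -2.42 in the authors' deposited table.

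In the ovary Gm23205, in an intron of Rnf14 on the same strand, had the most reads of the snRNAs. Its terms were 32 in hypoxia and 7 in normoxia and its log2 fold change was 2.12 in the authors' deposited table, 4.35-fold higher in hypoxia (2.02 to 14.4). Its nearest named gene was a U6 gene at 79.1% identity. The largest positive value was that of Gm25772, with terms of 11 in hypoxia and 1 in normoxia and 3.39 in the authors' deposited table, at least 3.17-fold higher (95% lower limit 2.13). Gm25772 is also the shortest member, at 56 bases, and had 218 near-identical copies. Gm22082, nearest to U1 over 50 of its bases, had terms of 1 in hypoxia and 5 in normoxia and -2.39 in the authors' deposited table, and its 95% interval included 1. A sum of 20 was therefore passed by 1 snRNA in each tissue, lower in hypoxia in the uterus and higher in the ovary.

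The list of 27 spliceosomal particle proteins (Sm, LSm, U1 and U2 proteins and partners) had 0 genes listed in either tissue. Of all annotated genes 1.63% (uterus) and 1.54% (ovary) were listed. A count of 0 says only that none reached a log2 fold change of 2 in size. U7 snRNA acts on replication-dependent histone mRNAs, which are mostly made without a poly(A) tail, so 59 histone genes of that kind were set beside the snRNAs, H4f16 among them added after its value was seen. In each tissue 4 were listed (6.78%), against 1.63% (uterus) and 1.54% (ovary) of all annotated genes. The uterus share counts H4f16, so it is raised by that late addition. The whole list was chosen with earlier results of these data known. Its share therefore cannot show enrichment in either tissue, and the directions may reflect that choice. The ovary genes were all lower in hypoxia, and in the uterus 1 was higher and 3 lower, with none of the uterus genes beyond counting error. H4f16, the higher gene, had terms of 13 in hypoxia and 2 in normoxia and 2.69 in the authors' deposited table, 6.47-fold higher (1.77 to 510.6). Of the 4 ovary genes 1, H1f3, was beyond counting error, with terms of 47 in hypoxia and 304 in normoxia and -2.76 in the authors' deposited table, 6.79-fold lower (5.06 to 9.65). H4c6 was lower in both tissues, with -2.33 in the authors' deposited table of the uterus and -3.39 in that of the ovary. Its uterus terms were 1 in hypoxia and 5 in normoxia, and its ovary terms 1 in hypoxia and 10 in normoxia. In the uterus H4c3 had terms of 1 in hypoxia and 16 in normoxia, and Hist1h4m 1 in hypoxia and 8 in normoxia. The 1 member nearest to U7 was listed in the ovary as lower, on terms of 1 to 4, and its 95% interval included 1. A link between it and the histone genes was not tested.

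The snoRNAs numbered 9 in the uterus, 5 higher and 4 lower in hypoxia, and 15 in the ovary, 6 higher and 9 lower. No snoRNA was beyond counting error, and 0 of 9 in the uterus and 8 of 15 in the ovary (53.3%) passed the uncorrected 95% interval, against 54.2% and 48.9% of all listed genes. All 9 uterus snoRNAs had a term of 1. Gm22334 was the snoRNA listed in both tissues. Its terms were 6 in hypoxia and 1 in normoxia in the uterus and 14 in hypoxia and 3 in normoxia in the ovary, with 2.58 (uterus) and 2.15 (ovary) in the authors' deposited tables. Its 95% interval included 1 in the uterus, and it was 4.44-fold higher in the hypoxia ovary (1.40 to 56.5). It lies in an intron of Trpc4ap on the same strand, and its nearest named gene was Snora70 at 70.4% identity.

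Among the other ovary snoRNAs, Gm25117 had the most reads, with terms of 29 in hypoxia and 6 in normoxia and 2.20 in the authors' deposited table. It was 4.60-fold higher in hypoxia (2.03 to 17.7) and lies in an intron of Nap1l1. Snord45b had terms of 3 in hypoxia and 19 in normoxia and -2.73 in the authors' deposited table, 6.65-fold lower (2.26 to 84.0). Snord45b lies where an exon of Rabggtb is annotated on the same strand, so its reads may belong to either gene. Gm22154, in an intron of Pabpc4, had the largest negative value of all members, -3.53 in the authors' deposited table, from terms of 1 in hypoxia and 11 in normoxia. That is at least 3.5-fold lower in hypoxia (95% lower limit 2.35). Gm25520 had terms of 8 in hypoxia and 1 in normoxia and 2.93 in the authors' deposited table, at least 2.22-fold higher (95% lower limit 1.37). It lies in an intron of Dkc1, which encodes the pseudouridine synthase that H/ACA RNAs guide and which was not listed itself. Near-identical copies elsewhere existed for 7 of the 23 snoRNA members, with 4 for Gm25117 and 3 for Gm22154. How the authors' counting treated reads of such copies is not known, so the values of these members are uncertain.

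In the uterus Gm22149, on the strand opposite Rgs6 and 84.3% identical to Snora17, had terms of 6 in hypoxia and 1 in normoxia and 2.58 in the authors' deposited table, and its 95% interval included 1. Gm26394, opposite an intron of Top2a, had terms of 1 in hypoxia and 6 in normoxia and -2.59 in the authors' deposited table, and its 95% interval included 1. An ACA that sits 3 bases from the end was found in 13 of the 23 snoRNA members (56.5%) and in 18.3% of annotated snoRNA genes. Both TGATG and CTGA were found in 4 of the 23 members (17.4%) and in 33.0% of annotated genes, searched on the transcript strand. Gm25848 and Gm26265 were in both counts, so these letters do not split the members into kinds. Snora17 was the nearest named gene of 4 of the 23 members (17.4%) and of 41.2% of annotated snoRNA genes. None of the 14 box C/D and H/ACA particle proteins and none of the 31 snoRNA host genes chosen was listed in either tissue. Of all annotated genes 1.63% (uterus) and 1.54% (ovary) were listed. Smaller changes in these genes cannot be seen at the threshold of 2.

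Of the 51 annotated scaRNAs 3 (5.88%) were listed in the ovary and 0 in the uterus, against 1.54% and 1.63% of all annotated genes. Scarna2, which in human guides methylation of U2 snRNA, had terms of 2 in hypoxia and 21 in normoxia and -3.46 in the authors' deposited table. It was 11-fold lower in hypoxia with an interval of 3.36 to 870.5, and with 5 added to both counts its log2 fold change was -2.13. It lies between genes on chromosome 3. Scarna3a had terms of 8 in hypoxia and 1 in normoxia and 2.93 in the authors' deposited table. It was 2.22-fold higher with 3 reads for the 0 (95% lower limit 1.37). Mir1843b is annotated on the same strand within it. Scarna6, chosen after its values were seen, had terms of 7 in hypoxia and 1 in normoxia and 2.74 in the authors' deposited table. It was 1.90-fold higher with 3 reads for the 0 (95% lower limit 1.12). The scaRNA with the largest sum of terms was thus lower in hypoxia, and the other 2, with a term of 1 in normoxia, were higher.

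The misc_RNA class held 9 uterus members, 5 higher and 4 lower in hypoxia, and 11 ovary members, 7 higher and 4 lower. By sequence 12 of its 18 annotated members (66.7%) were nearest to 7SK, against 55.7% of annotated misc_RNA genes, at identities of 65.8% to 85.1%. Gm25219 was the 1 of them beyond counting error. In the ovary its terms were 55 in hypoxia and 12 in normoxia and its log2 fold change was 2.13 in the authors' deposited table, 4.37-fold higher (2.42 to 9.92). With 5 added to both counts it was 1.81. It lies at chr5:23487394-23487723 on the minus strand, opposite an intron of Kmt2e, and matched 7SK at 70.5% over 37.0% of its length. None of the 9 genes of 7SK, Y RNA and vault proteins, and none of the 8 signal recognition particle proteins, was listed. Of all annotated genes 1.63% (uterus) and 1.54% (ovary) were listed. Smaller changes in these genes cannot be seen at the threshold of 2.

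In the ovary Gm22036 had terms of 17 in hypoxia and 3 in normoxia and 2.43 in the authors' deposited table, 5.40-fold higher (1.79 to 68.3). It lies in an intron of Slco1a1, an organic anion transporter gene on the same strand. Slco1a1 was itself listed in the ovary, with terms of 188 in hypoxia and 43 in normoxia and 2.06 in the authors' deposited table, 4.16-fold higher (3.02 to 6.08). It was the 1 host gene listed among the 36 ovary members that lie within a gene on the same strand (2.78%). Of all annotated genes 1.54% were listed in the ovary. In the uterus 0 of 13 such members had a listed host, where 1.63% of all annotated genes were listed. Counts this small do not show whether members and hosts change together. Whether the Gm22036 reads came from its host was not tested. Gm24139, chosen after its values were seen, had terms of 19 in hypoxia and 4 in normoxia and 2.18 in the authors' deposited table, 4.52-fold higher (1.67 to 30.3). Gm22277, with no named match, had terms of 1 in hypoxia and 8 in normoxia and -3.07 in the authors' deposited table. It was 2.45-fold lower with 3 reads for the 0 (95% lower limit 1.51).

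In the uterus Gm27651 had the largest terms of all uterus members, 38 in hypoxia and 9 in normoxia, with 2.07 in the authors' deposited table. It was 4.20-fold higher in hypoxia (2.11 to 11.4). Its nearest named family was 7SL, at 86.7% over 44 bases, and it contains a run of 15 A. Gm27980 was listed in both tissues, with terms of 10 in hypoxia and 1 in normoxia in the uterus and 5 in hypoxia and 1 in normoxia in the ovary. Its log2 fold change was 3.32 in the authors' deposited table of the uterus and 2.25 in that of the ovary. It was at least 2.99-fold higher in the hypoxia uterus (95% lower limit 1.97), and its ovary interval included 1. As the capitals in its sequence show, its reads may belong to an exon of Arhgap6. Gm25372, opposite an intron of Rgs22, had terms of 1 in hypoxia and 5 in normoxia in the uterus and -2.33 in the authors' deposited table, and its 95% interval included 1.

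The 3 members listed in both tissues were 8.57% of the uterus members and 5.0% of the ovary members. All 3 had the same direction in both, Rmrp lower and Gm27980 and Gm22334 higher in hypoxia. Over all listed genes 61 were in both tables, 6.76% of the uterus list and 7.14% of the ovary list, and 40 of these 61 had the same direction. Of the 3, Rmrp is the 1 whose ratio was beyond counting error in a tissue.

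Across classes, 79 of the 91 members found in the annotation carry no family name, and 60 of these 79 had a named match by sequence. U6, 7SK or 5S was the nearest family for 46 of the 91. The transcripts compared, 1 for each member, ranged from 56 to 1849 bases, with a median of 122. Of the 91, 10 (11%) overlap an exon on the same strand and 37 (40.7%) lie in an intron on the same strand, against 7.47% and 26.1% of annotated genes of the 6 classes. A further 29 (31.9%) have a gene on the opposite strand only, and 15 (16.5%) lie between genes, against 20.3% and 46.1%. The share of members between genes was thus smaller than in their classes at large, a difference that was not tested. A run of 8 A, to which an oligo(dT) bead can bind, was found in 3 of 34 snRNA members (8.82%) and 1.23% of annotated snRNA genes. It was found in 2 of 18 misc_RNA members (11.1%) and 2.31% of annotated misc_RNA genes. The snRNAs were Gm24492, Gm25131 and Gm23248, all 3 listed in the uterus, and the misc_RNAs were Gm27651 and Gm22662. Its part in which members were listed was not tested.

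**Figure D5:**
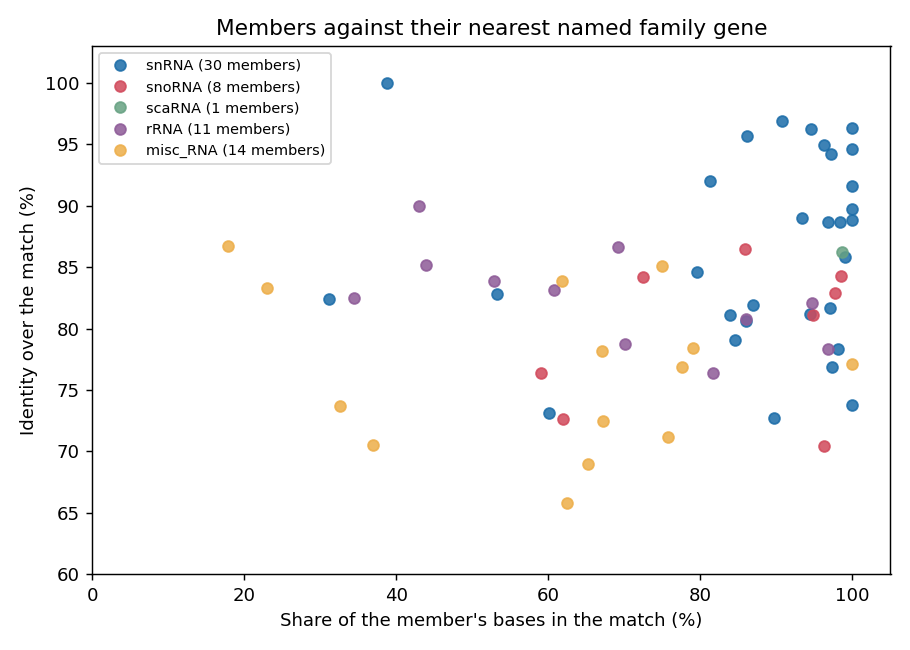
Identity of each member to its nearest named family gene (percent of matched bases) against the share of its bases in the match (percent), for the 64 members with a named match; each point is 1 member, coloured by class. The snRNAs gather at the upper right, with a median identity of 88.8% for those nearest to U6, and the misc_RNAs lie lower, at 65.8% to 85.1% for those nearest to 7SK.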

How the data were processed

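RNA from uterus and ovary was sequenced, 1 pooled library a group. ISOGEN II extraction, poly(A) capture and a directional library kit were used, per the labels' protocols. Among the tools in the submitters' processing notes, HISAT2 has version 2.2.1, DESeq2 version 2.11.40.7, HTSeq version 0.9.1 and FastQC version 0.73, with the build mm10. The authors deposited, per the file headers, a log2 fold change per gene for genes at or past 2 in size, with no counts or totals, so depth is unknown and its precision is known only through the terms.

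From these values the terms and the shared factor were recovered (largest relative error 7.55e-15 in the uterus and 8.66e-15 in the ovary). Intervals cover counting error only. For a gene with 0 reads in a library, 3 reads took the place of 0 to give a smaller fold, which is not a lower bound. Where terms were 1 to 4 no fold is given. Members were matched to GENCODE M21 by gene and chromosome (91 of 92, all but Gm49799). BLAST 2.17.0 at an E-value of 1e-05 compared them with 362 named family genes. Other tools were Python 3.11.15, NumPy 2.4.6, pandas 2.3.3, SciPy 1.17.1 and Matplotlib 3.10.9. The steps were run on simulated counts that held counting error only and were made into ratios by the same count-plus-1 rule. That run assumed this reading of the terms and could not test it.

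The members and lists were chosen with earlier results of these data known. Named members were those beyond counting error, those listed in both tissues and, per tissue and class, those with the largest sum of terms, the largest positive and the largest negative value. Alternatives tried were a log2 threshold of 3, classes from the annotation, leaving out terms of 1 to 4, terms read as counts, an uncorrected interval, sums of 50 and 20, a pseudocount of 5, removal of the shared factor and joining by symbol. No sequence of Gm24690 or Gm23205 is printed, and some other sequences are not reported here.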

Additional observations from a re-analysis of the deposited data

How the results depend on the processing

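With a log2 threshold of 3, 2 uterus and 6 ovary members stayed listed, of which 1 uterus and 3 ovary members were lower in hypoxia. Leaving out terms of 1 to 4 left 13 lower members in the uterus, against 22. The uncorrected 95% interval raised the members beyond counting error to 11 (uterus) and 31 (ovary), against 0 and 3. A sum of terms of at least 20 was met by 3 uterus and 9 ovary members, against 0 and 2 at 100. With the shared factor removed, CT010467.1 had a log2 fold change of -2.17, outside its narrow counting interval, and the other 28 named values stayed within theirs. All 29 stayed within them with a pseudocount of 5, which drew the sizes in to 0.99 to 1.69 for higher and 0.85 to 2.06 for lower members in the uterus, and to 0.78 to 1.81 and 0.92 to 2.62 in the ovary. Classes from the annotation, terms read as counts, a sum of 50 and joining by symbol kept each count within 1.5 times. No paired analysis was possible because each group is 1 library. For the same reason leaving out a replicate could not be run. Counting error limits most members, whose terms had a median sum of 7 (uterus) or 8 (ovary).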
